A study of Mus musculus with 6 samples.

Results

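Transmembrane mucins are large glycoproteins anchored in the apical membrane of epithelial cells, where their O-glycosylated extracellular domains form the glycocalyx under the secreted mucus. Most are cleaved into an extracellular and a membrane-spanning part that stay associated, and their short cytoplasmic tails take part in signalling. In the colon, surface enterocytes carry Muc3 and Muc13, while gel-forming Muc2 is secreted by goblet cells and builds the mucus layer. The members were the 5 genes named Muc1, Muc3, Muc4, Muc13 and Muc20 in a table of 54532 genes, chosen as membrane-bound mucins. All 5 were found, and 4 of them passed the filter on low counts that 16861 genes passed. Muc20 did not, and its reads are given without a test.

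Bulk poly-A RNA sequencing was done on distal colon of mice, with 6 libraries, 3 labelled wild-type (WT 1 to WT 3) and 3 labelled Itgbl1 -/- (KO 1 to KO 3). Every sample came from a mouse given 3% dextran sulfate sodium (DSS) in the drinking water and killed on day 7, so the groups share an acute chemical colitis and no library without DSS was analysed here. The sources used here do not state age, sex, strain or how the knockout allele was made. The replicate numbers do not state that each library is a separate animal, and the p-values therefore reflect only how these samples varied, which may be technical.

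The libraries labelled knockout stood apart from each other as well as from the wild-type libraries. Total counts were 13326970 to 18321389 per library. Itgbl1, in replicate order, had 19, 6 and 5 reads in the wild-type libraries and 12, 4 and 10 in those labelled knockout. Its loss was therefore not seen, so every direction below is between libraries labelled knockout and wild-type. For Epcam, a defining marker of epithelium, counts scaled by library size (CPM) were 2315, 2403 and 2293 under the wild-type label, then 164 for KO 1, 1079 for KO 2 and 8.70 for KO 3. The scaling uses trimmed means (TMM), and CPM stands for counts scaled in this way to a fixed library total. The mitochondrial share of reads was 12.8% for KO 3 against 3.53 to 4.88% elsewhere. In bulk tissue, fewer epithelial cells and less RNA per epithelial cell cannot be told apart.

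The members lie at 4 places in the genome (GRCm38). Muc1 (ENSMUSG00000042784, chromosome 3, 89229057 to 89233381, plus strand) encodes the prototype of the family, a widely expressed epithelial mucin whose tail is phosphorylated by receptor kinases. Muc3 (ENSMUSG00000037390, chromosome 5, 137134922 to 137149322, minus strand) encodes the main brush-border mucin of the mouse intestine. Its deposited gene model spans 1943 exonic bases, and the start that RefSeq gives for the gene lies 16.7 kb upstream of that model, so counts cover only the part of the gene near its 3′ end. Muc4 (ENSMUSG00000079620, chromosome 16, 32735886 to 32782391, plus strand) encodes a ligand-like partner of the receptor ERBB2. Muc20 (ENSMUSG00000035638, chromosome 16, 32777419 to 32797435, minus strand) encodes a small mucin that binds the receptor MET. Muc13 (ENSMUSG00000022824, chromosome 16, 33794037 to 33819934, plus strand), a mucin with EGF-like domains that is abundant in the large intestine, lies 997 kb beyond Muc20.

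Muc4 and Muc20 face each other and share 627 exonic bases, which are 15.6% of the exonic bases of Muc20 and 5.33% of those of Muc4. Of all 50-base stretches of the annotated transcripts, 12.1% in Muc20 and 4.31% in Muc4 also occurred, on the opposite strand, in the other gene. In Muc13, 5.2% occurred in the antisense gene Gm15657, which had 0 to 134 reads per library. No source used here states the strand setting of the counting, so the origin of reads from these overlaps cannot be told apart. No such stretch of Muc1 or Muc3 occurred in a transcript of another gene.

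The start regions of the 4 members past the filter are shown because Muc3 and Muc13 lay below the wild-type range in KO 1, KO 2 and KO 3, whereas Muc1 and Muc4 overlapped with it. Each is 250 bases before to 50 bases after a RefSeq start (GRCm38.p6), 5′ to 3′ on the strand of the gene, and Muc13 has 2 starts in that table. Capitals mark the motifs searched on both strands, which were chosen with these sequences in view.
Muc1, chr3:89228806-89229105, plus strand: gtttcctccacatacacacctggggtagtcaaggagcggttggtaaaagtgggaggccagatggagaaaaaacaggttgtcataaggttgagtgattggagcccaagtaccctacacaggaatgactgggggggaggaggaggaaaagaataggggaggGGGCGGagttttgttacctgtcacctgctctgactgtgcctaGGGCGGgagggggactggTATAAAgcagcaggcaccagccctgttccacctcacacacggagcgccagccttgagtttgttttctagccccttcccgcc
Muc3, chr5:137165997-137166296, minus strand: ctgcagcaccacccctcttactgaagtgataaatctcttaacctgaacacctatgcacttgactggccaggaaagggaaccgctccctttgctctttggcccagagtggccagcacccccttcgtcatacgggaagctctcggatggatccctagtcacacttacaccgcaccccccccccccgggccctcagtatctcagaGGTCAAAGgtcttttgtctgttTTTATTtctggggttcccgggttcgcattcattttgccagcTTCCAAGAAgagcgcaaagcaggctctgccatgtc
Muc13, first start, chr16:33793787-33794086, plus strand: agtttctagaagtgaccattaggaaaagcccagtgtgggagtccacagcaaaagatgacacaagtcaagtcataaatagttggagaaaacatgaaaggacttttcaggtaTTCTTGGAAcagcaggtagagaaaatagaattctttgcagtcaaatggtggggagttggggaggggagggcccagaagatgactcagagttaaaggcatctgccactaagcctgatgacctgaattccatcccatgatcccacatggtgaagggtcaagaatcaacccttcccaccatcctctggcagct
Muc13, second start, chr16:33794239-33794538, plus strand: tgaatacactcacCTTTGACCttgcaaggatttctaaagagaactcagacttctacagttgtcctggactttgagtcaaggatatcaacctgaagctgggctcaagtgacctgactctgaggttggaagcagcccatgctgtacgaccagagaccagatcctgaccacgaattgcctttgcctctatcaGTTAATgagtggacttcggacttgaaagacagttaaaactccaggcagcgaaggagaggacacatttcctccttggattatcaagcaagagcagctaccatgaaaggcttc
Muc4, chr16:32735636-32735935, plus strand: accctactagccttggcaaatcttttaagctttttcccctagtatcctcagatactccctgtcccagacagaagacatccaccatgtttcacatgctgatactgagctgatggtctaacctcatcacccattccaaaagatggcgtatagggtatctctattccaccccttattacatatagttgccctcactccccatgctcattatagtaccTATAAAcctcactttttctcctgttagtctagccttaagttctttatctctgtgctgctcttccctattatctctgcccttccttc

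The Muc1 and Muc4 windows held the TATA box letters TATAAA at 31 and 36 bases before the start, and these letters occurred in 13.6% of all 32851 windows of the table. The Muc1 window also held GGGCGG, the GC box bound by SP1, at 91 and 49 bases before the start (35.7% of all windows). The Muc3 window and the second Muc13 window held GGTCAAAG, part of an HNF4 direct repeat, which occurred in 0.962% of all windows. It began 48 bases before the Muc3 start and, on the opposite strand, 237 bases before the Muc13 start. The second Muc13 window held GTTAAT (7.1% of all windows), and the Muc3 window held TTTATT, a core bound by CDX factors (19.6%). The palindrome TTCNNNGAA were in the Muc3 window and the first Muc13 window (8.3%). None of the motifs overlapped another. A match of letters is a description and shows no binding.

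Muc3 and Muc13 carried nearly all transmembrane mucin transcripts in the wild-type colon. Levels per length, in CPM per kb of the deposited gene length, were 2476 ± 823 (SD, n = 3) for Muc3 and 1290.5 ± 258 (SD, n = 3) for Muc13. Muc1 followed at 16.6 ± 5.47, Muc4 at 4.69 ± 1.22 and Muc20 at 0.101 ± 0.0629 (SD, n = 3 each). This order held in each wild-type library and also in KO 1 and KO 2. Muc3 and Muc13 were at 2151 and 1527 CPM per kb in WT 1 and at 3412 and 1015 in WT 2. Among all genes by CPM per kb, Muc3 ranked between 7 and 15 in the wild-type libraries and Muc13 between 27 and 46. These levels and ranks depend on the deposited gene length, which for Muc3 covers only the part near its 3′ end. Before division by length, Muc13 was above Muc3 in WT 1 and WT 3, at 4639.5 against 4179 CPM and 4037 against 3625 CPM. For comparison, the mean of goblet cell Muc2 in the wild-type libraries was 335 ± 39.9 CPM per kb (SD, n = 3).

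The 5 members together took 0.821, 0.920 and 0.762% of all counts of the wild-type libraries. The share was 0.0606% for KO 1, 0.227% for KO 2 and 0.00167% for KO 3, so all libraries labelled knockout lay below the wild-type range. Their summed level was 13.10 ± 0.17 on the log2 CPM scale (SD, n = 3) for wild-type and 8.08 ± 3.60 for libraries labelled knockout. The difference of -5.02 had a two-sided exact permutation p of 0.1, the smallest that 3 libraries against 3 allow. It is a difference of means of log2 values, so its size cannot be set against the edgeR log2 ratios of single members below. Without KO 3, whose epithelial markers were lowest, the difference was -3.04, and without KO 2, whose epithelial markers were highest under that label, it was -6.56.

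Muc3 was the tested member with the lowest ratio. By replicate number its wild-type CPM were 4179, 6630.2 and 3625, against 222, 879 and 3.57 for the knockout label. The groups did not overlap, and the highest and lowest libraries differed 246-fold under the knockout label against 1.83-fold in wild-type. The log2 ratio of knockout-labelled to wild-type libraries was -3.71 ± 1.53 (SE) with a 95% interval of -7.32 to -0.095 and an adjusted p of 0.199 (edgeR quasi-likelihood test over 16861 genes), so it did not pass. It was -5.48 without KO 2 and -3.12 without KO 3, and neither passed. With limma-voom it was -5.76.

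Muc13 was the other member lower in every library labelled knockout than in wild-type, although within wild-type it was lowest in WT 2, where Muc3 was highest. Wild-type CPM were 4639.5, 3085 and 4037, and those under the knockout label 271, 1258 and 7.46. Again the groups did not overlap, with KO 2 the nearest to wild-type at 32.1% of the wild-type mean. The log2 ratio was -2.94 ± 1.41 (SE), with a 95% interval of -6.27 to 0.40 and an adjusted p of 0.254 (edgeR). Among the alternatives run only DESeq2 called it, at -2.97 with an adjusted p of 0.0452, in a test that called 10.5% of all genes and 6.45% as lower. Over all alternatives its adjusted p ranged from 0.0452 to 0.45. Without KO 2 the ratio was -4.88, and with limma-voom it was -4.92.

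Muc1 was far below these genes per length, and its range within the knockout label was narrower. Wild-type CPM were 51.9, 26.2 and 38.9, beside 7.81 for KO 1, 34.1 for KO 2 and 6.14 for KO 3. KO 2 lay inside the wild-type range, so the groups overlapped. The log2 ratio was -1.28 ± 0.67 (SE) with a 95% interval of -2.87 to 0.30 and an adjusted p of 0.29 (edgeR). Without KO 2 it was -2.53 with an adjusted p of 0.0237, in a fit that called 10.4% of all genes and 7.75% as lower, and without KO 1 it was -0.93 with an adjusted p of 0.488. Over all alternatives the adjusted p ranged from 0.0237 to 0.51. In KO 3, where Epcam stood at 0.372% of its wild-type mean, Muc1 stood at 15.7% from 79 reads.

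Muc4 gave the widest spread. CPM were 69.7, 41.0 and 54.7 in wild-type, 3.31 for KO 1, 92.5 for KO 2 and 0 for KO 3. Thus KO 2 was above every wild-type library, at 168% of the wild-type mean, and KO 1 below them all. KO 3 had 0 reads, which allows up to 0.233 CPM by a floor of 3 counts that covers counting error only. The log2 ratio was -0.79 ± 1.63 (SE), with a 95% interval of -4.64 to 3.07 and an adjusted p of 0.793 (edgeR). It was -5.04 without KO 2 (adjusted p = 0.0527), -0.22 without KO 1 and -0.19 without KO 3, and with limma-voom it was -4.20. Its size thus moved with the library left out and with the test.

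Muc20 was close to the detection limit everywhere. Its reads numbered 10, 8 and 2 for wild-type (20 in all) and 6, 7 and 1 for the knockout label (14 in all). Highest was WT 1 at 0.594 CPM with an exact Poisson 95% interval of 0.285 to 1.09, and lowest KO 3 at 0.0777 CPM with 0.00197 to 0.433. Such intervals overlap, and they cover counting error only. With no filter on low counts the log2 ratio was -0.65 and its adjusted p 0.795 (edgeR). A difference of this gene was not detectable at this depth.

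**Figure D1:**
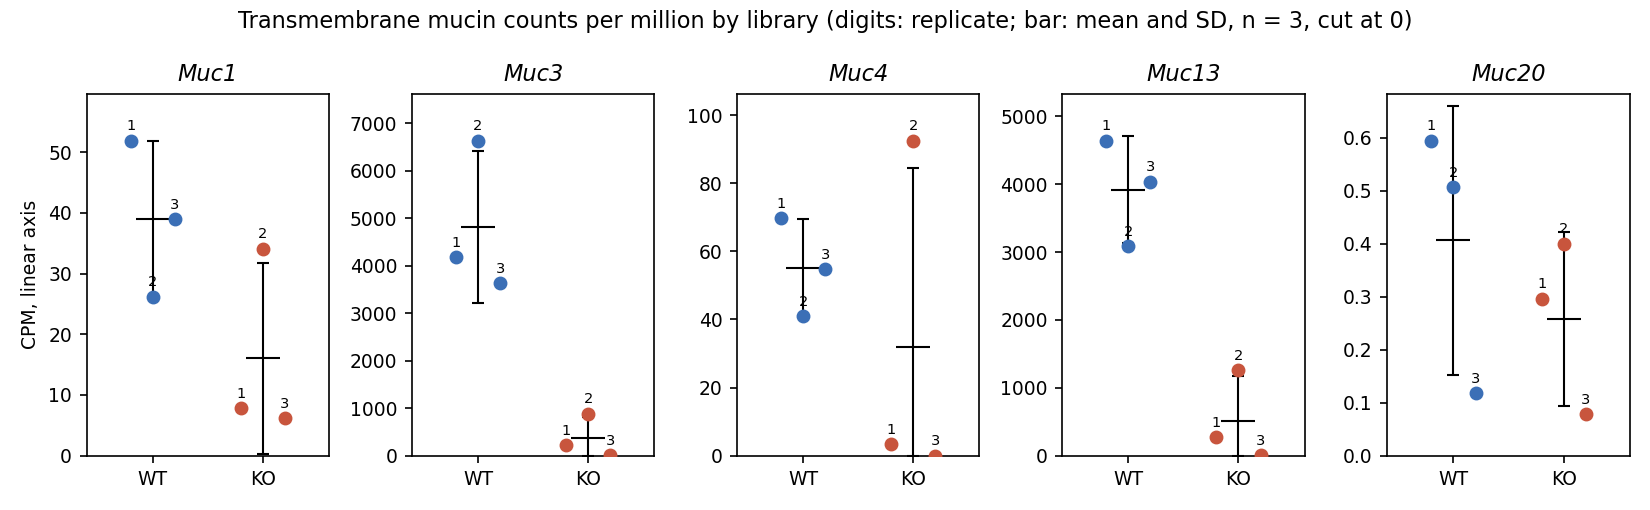
CPM (linear axis, own scale per panel) of the 5 members in each library, blue for wild-type and red for the libraries labelled knockout, with the replicate number beside each point and bars for mean and SD (n = 3). Muc3 and Muc13 do not overlap between the labels, while KO 2 lies at 34.1 CPM inside the wild-type range of Muc1 and at 92.5 CPM above that of Muc4.

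Of the 4 members tested, 0 had an adjusted p under 0.05 with edgeR, where 0 of 16861 genes (0%) were called and 4059 (24.1%) had an unadjusted p under 0.05. At an unadjusted p under 0.05, 1 of the 4, Muc3, was lower under the knockout label, as were 12.3% of all genes. DESeq2 called 2029 genes, among them Muc13, and limma-voom with quality weights 1395 genes (8.27%) and 0 members. Without a filter 0.622% of genes were called and with a replicate block 0.0178%, in both cases with 0 members. In 2 of the 4, Muc3 and Muc13, all libraries labelled knockout lay below all wild-type libraries, against 17.3% of all genes (15% lay above). The log2 ratios of all 4 were negative with a median of -2.11, beside 46.9% negative and a median of 0.061 among all genes tested. A ratio as low as that of Muc3 or lower was found in 1.1% of all genes, and as low as that of Muc13 in 2.44%. Neutrophil markers (S100a8, S100a9, Csf3r, Cxcr2 and Retnlg) summed to 8.80 to 421 CPM in wild-type libraries and to 1135 to 6695 under the knockout label, and their part in these ratios was not tested.

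Relative to their own wild-type means the members did not keep step in KO 2. In that library Muc3 stood at 18.3% and Muc13 at 32.1%, both below Epcam at 46.2%. Muc1 stood at 87.4%, close to goblet cell Muc2 at 91.9%, and Muc4 at 168%. In KO 1 Muc3 stood at 4.62%, Muc13 at 6.90%, Muc2 at 5.23% and Epcam at 7.00%, with Muc1 above them. In KO 3 Muc3 stood at 0.0743%, Muc13 at 0.190% and Muc2 at 0.127%.

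**Figure D2:**
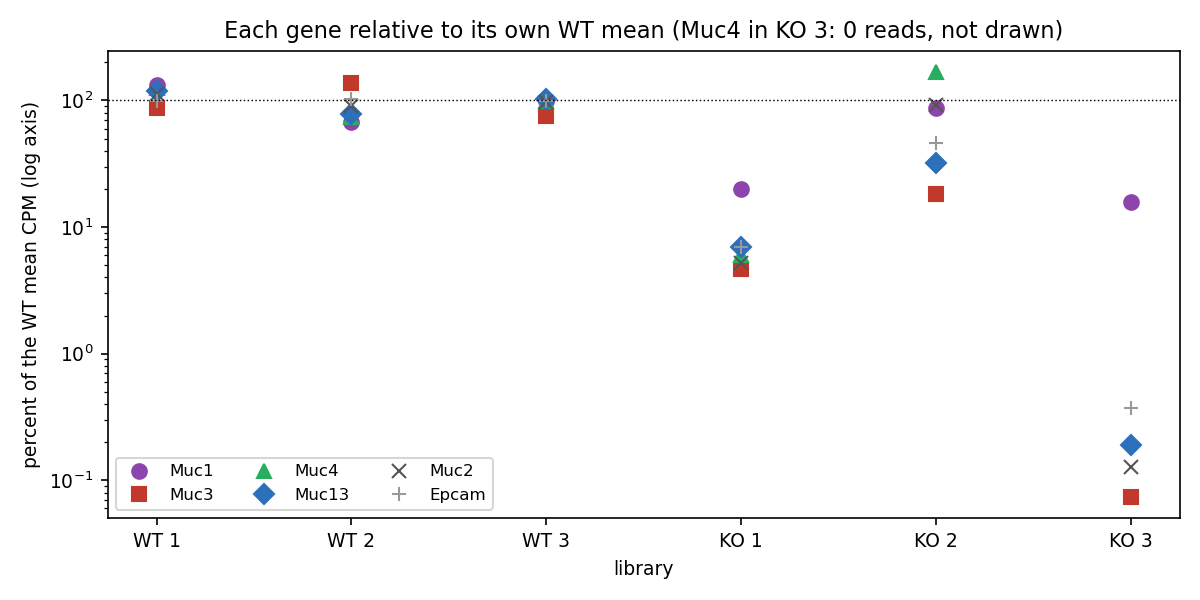
Level of 4 members, Muc2 and Epcam in each library as a percentage of the wild-type mean of the same gene (log axis, dotted line at the mean), without Muc4 in KO 3, which had 0 reads. Muc3 is the lowest drawn gene in KO 1, KO 2 and KO 3, and Muc4 in KO 2 is the only drawn point of a library labelled knockout above the dotted line.

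The members were then set against general epithelial transcripts of the same library, the mean log2(CPM + 0.5) of Epcam, Cdh1, Krt8, Krt18, Krt19 and Cldn7. On this scale a value of 0 means the level of an average reference gene. All 6 reference genes lay below the whole wild-type range in KO 1, KO 2 and KO 3, beside 17.3% of all genes. None passed the edgeR test, which called 0% of all genes. The summed members stood at 2.63, 2.23 and 2.33 in wild-type and at 2.07, 1.72 and 1.40 under the knockout label, so the groups did not overlap. The difference was -0.67 (two-sided exact permutation p = 0.1, the smallest possible), against -5.02 before this scaling. With the keratins alone as reference the difference was -0.80 and p was 0.2 by the same exact test.

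Muc3 was lower against this reference under the knockout label. It stood at 1.53, 1.67 and 1.23 in wild-type and at 0.89, 0.35 and -0.69 under the knockout label, a difference of -1.29 with no overlap, and -0.86 without KO 3. Muc13 stood at 1.68, 0.57 and 1.38 in wild-type and at 1.17, 0.87 and 0.28 under the knockout label, so its groups overlapped, with a difference of -0.44. This was -0.19 without KO 3, -0.20 without WT 1 and -0.76 without WT 2. For Muc1 the sign was opposite, with -4.79, -6.28 and -5.29 in wild-type and -3.85, -4.32 and 0.019 under the knockout label, a difference of 2.74 with no overlap, and 1.37 without KO 3. Muc4 stood at -4.37, -5.65 and -4.81 in wild-type and at -4.98, -2.89 and -3.71 under the knockout label, the last of which is set by the pseudocount because KO 3 had 0 reads. Its difference was 1.08, or 0.59 without KO 2 and 1.64 without KO 1. Muc20 lay under the pseudocount in most libraries, so its ratio is not described. By two-sided exact permutation test, p was 0.1 for Muc1 and Muc3, 0.3 for Muc4 and 0.4 for Muc13, and the adjusted p over the 5 members was 0.167 for Muc1 and Muc3, above the threshold that this design cannot reach.

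**Figure D3:**
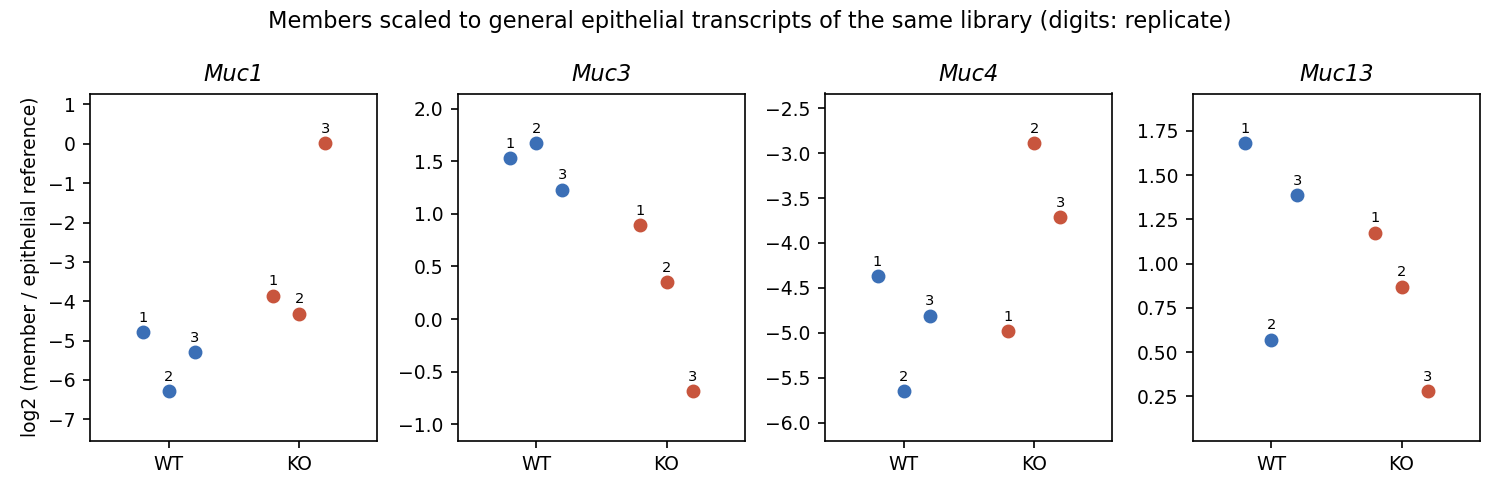
Log2 ratio of 4 members to the mean of 6 epithelial reference genes in each library, with the replicate number beside each point and an axis of its own per panel. Muc3 is lower and Muc1 higher in all 3 libraries labelled knockout than in all wild-type libraries, while Muc4 and Muc13 overlap.

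The make-up of the family, each member as a share of the summed counts per kb, does not depend on how libraries are scaled. Muc3 made up 58.0, 76.8 and 58.0% in wild-type and 55.2, 50.9 and 26.5% under the knockout label. The mean share differed by -20.1 percentage points (exact permutation p = 0.1, adjusted p = 0.167 over the 5 members). It differed by -11.2 without KO 3, by -13.8 without WT 2 and by -19.2 with counts not divided by gene length. Muc13 made up 41.2, 22.9 and 41.3% in wild-type and 43.0, 46.6 and 35.4% under the knockout label, with overlap. Its difference of 6.54 was 0.404 without WT 2 and 4.09 without KO 2. WT 2, which had the highest Muc3, had the lowest Muc13 of its group, and its ratio of Muc13 to Muc3 CPM was 0.465 against 1.11 in both WT 1 and WT 3. Under the knockout label that ratio was 1.22, 1.43 and 2.09, above all wild-type libraries. Muc1 made up 0.597, 0.251 and 0.516% in wild-type and 1.61, 1.63 and 37.8% under the knockout label, and the last value rests on 79 reads of Muc1 beside 46 of Muc3 and 96 of Muc13. Without KO 3 the mean share of Muc1 differed by 1.17 percentage points, against 13.2 with it. The share of Muc4 was 0.885% for KO 2 and at most 0.160% elsewhere.

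**Figure D4:**
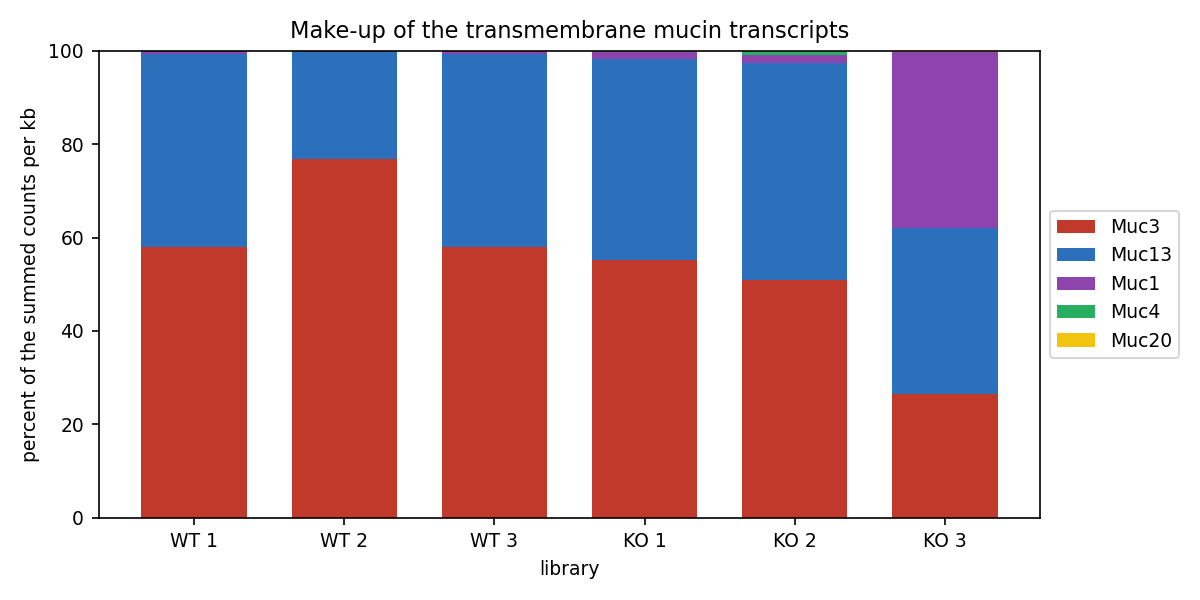
Stacked shares of the 5 members in the summed counts per kb of each library, in percent. Muc3 and Muc13 take up nearly all of the bars from WT 1 to KO 2, and Muc1 reaches 37.8% in KO 3.

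Genes with log2 CPM over the 6 libraries most like that of a member were sought among 11794 protein-coding genes. These genes had a mean of at least 5 CPM and left out every gene of the gene lists described here, Epcam among them. The counts at 0.95 below therefore leave out the listed epithelial markers. The likeness is a description, with no p, since all genes share the same libraries. Most like Muc3 were Tmem35b, Foxd2 and 2610528J11Rik, each with a Pearson r of 0.998, and 678 genes reached 0.95. Most like Muc13 were Srr, Capn13 and Slc44a4, a transporter gene, at 0.9998, 0.9994 and 0.9986, and 593 genes reached 0.95. For Muc4 they were Cldn23, a claudin gene, Spink1 and Ffar4, a fatty acid receptor gene, at 0.998, 0.997 and 0.996, with 351 genes at 0.95. Cldn23 shared the high value in KO 2, with 94.2 CPM there and 93.2, 49.2 and 67.3 CPM in wild-type. For Muc1 they were Gchfr, Sord and Sp110, at 0.998, 0.997 and 0.996, with 253 genes at 0.95. Among the members, r was 0.991 between Muc3 and Muc13 and 0.860 between Muc1 and Muc3, while r with Epcam was 0.996 for Muc13, 0.991 for Muc3, 0.97 for Muc4 and 0.909 for Muc1. A high r does not mean a difference of like size. The log2 ratio was -0.88 for Srr against -2.94 for Muc13, and -1.21 for Tmem35b against -3.71 for Muc3. Capn13, Slc44a4, Foxd2 and 2610528J11Rik lay between -3.11 and -2.55.

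Of the genes listed as acting with transmembrane mucins, none passed the adjusted threshold with edgeR. Among receptors that partner these mucins, Erbb2, the partner of Muc4, had 134, 268 and 158 CPM in wild-type against 33.1, 54.5 and 35.5 CPM for the knockout label (log2 ratio -2.18). Erbb3 had -2.18 and Met, the receptor bound by Muc20, had -1.72. Of 5 tested, these 3 did not overlap between the labels (17.3% of all genes were lower in this way) and had an unadjusted p under 0.05 (12.3% of all genes). Egfr at 0.40 and the MET ligand gene Hgf at 1.45 overlapped. In KO 2, where Muc4 was highest, Erbb2 was at 54.5 CPM, below the wild-type range.

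Among proteins that bind the cytoplasmic tails or the membrane skeleton, Ezr, encoding the microvillus linker ezrin, had a log2 ratio of -1.55 and Slc9a3r1, encoding the scaffold NHERF1, one of -1.09. Both had an unadjusted p under 0.05, out of 5 tested, beside 12.3% of all genes lower at that p. Ctnnb1 was at -0.58, and Gopc and Slc9a3r2 were at 0.21 and 0.071 with overlap. Galectins, which cross-link mucin glycans, were negative in 4 of 5 tested, with Lgals4 at -2.87 and Lgals3 at -2.16. Lgals1 was at 0.85 with overlap.

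Enzymes that cleave membrane mucins differed in sign, with 5 of 10 negative and a median of 0.011. The meprin genes Mep1a and Mep1b were at -4.90 and -2.26 and St14, encoding matriptase, at -2.09, without overlap of the labels. Adam8, Mmp14 and Adam9 were at 2.33, 1.17 and 0.79, also without overlap. Adam17 and Adam10, which shed many membrane proteins, were at -0.072 with overlap and -0.43 without overlap. In this list 4 genes were lower and 3 higher without overlap of the labels, beside 17.3% and 15% of all genes. At an unadjusted p under 0.05 were 1 lower and 2 higher, beside 12.3% of all genes lower and 11.8% higher.

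Each of the 16 epithelial transcription factor genes listed had a negative log2 ratio (median -2.83), beside 46.9% of all genes, and 14 did not overlap between the labels, beside 17.3% of all genes lower. At an unadjusted p under 0.05 were 9 of the 16, beside 12.3% of all genes lower. Gata6, a factor of gut epithelium, had a log2 ratio of -1.80 and Hnf4g, a nuclear receptor gene of enterocytes, one of -3.69, both without overlap. Spdef and Foxa3, factors of goblet cells, overlapped, with Spdef at 47.1 CPM in KO 2 and 53.1, 39.5 and 33.3 CPM in wild-type. The 7 inflammatory factor genes had a median of 0.052, with Stat3 at 0.78 and Rela at 0.63. Of 8 cytokine genes tested, 4 were negative and the median was 0.47. Il6, Il10 and Tgfb1 were at 4.94, 2.26 and 0.98 with an unadjusted p under 0.05, beside 11.8% of all genes higher at that p. Ifng was at -1.34, lower without overlap, with an unadjusted p of 0.104 (edgeR). Its level was low, at 0.767 to 1.25 CPM in wild-type and 0.0988 to 0.544 CPM under the knockout label.

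Genes of O-glycosylation, which builds the mucin sugar chains, were negative in 16 of 20 tested, with a median of -1.47. At an unadjusted p under 0.05 were 9 lower and 1 higher, beside 12.3% and 11.8% of all genes. Galnt7 and Galnt4, which start the chains, had log2 ratios of -2.56 and -2.34, and B3gnt3, which extends them, one of -2.49. The sialyltransferase gene St3gal1 was at 1.67, without overlap. Gcnt3, encoding a core-branching enzyme, overlapped and was at 127 CPM in KO 2 beside 131, 81.5 and 94.4 CPM in wild-type.

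**Figure D5:**
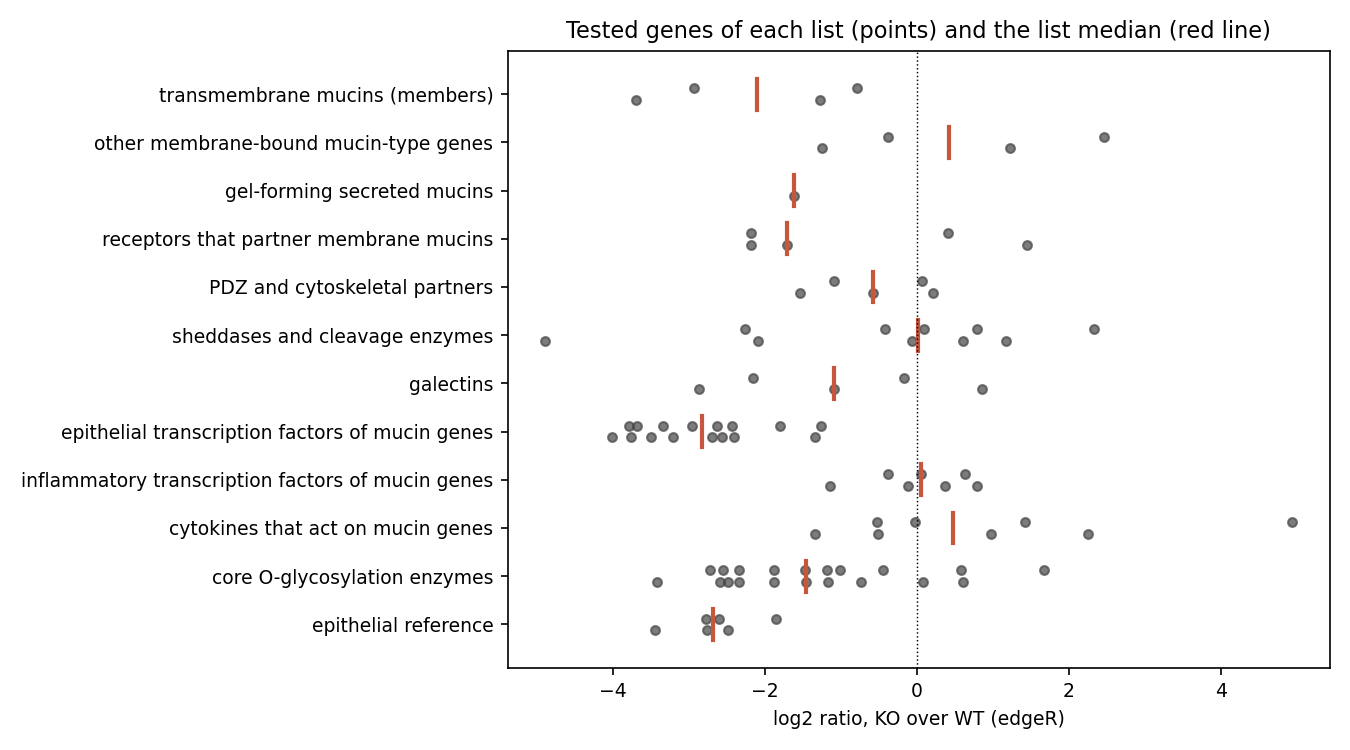
Log2 ratio of knockout-labelled to wild-type libraries (edgeR) for every tested gene of 12 gene lists, 1 point per gene, with the list median as a red line. The transmembrane mucins have a median of -2.11, with genes from -3.71 (Muc3) to -0.79 (Muc4), and the epithelial reference one of -2.69. Cleavage enzymes have a median of 0.011, with genes from -4.90 (Mep1a) to 2.33 (Adam8). Cytokines have a median of 0.47, with genes from -1.34 (Ifng) to 4.94 (Il6).

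Other mucin-type genes were measured with the members. Of 8 further membrane-bound mucin-type genes, 6 were in the table and 4 were tested. Parm1 had a log2 ratio of -1.26 and Cd164 one of -0.38. Emcn, the endothelial sialomucin, was at 2.46 and Mcam, an adhesion molecule of vessels, at 1.23. Muc16 and Muc15 had under 1 CPM in every library. Of 5 gel-forming mucins only Muc2 was tested, at -1.62, and its libraries overlapped because KO 2 was at 2197 CPM beside 2704, 2152 and 2311 CPM in wild-type. Muc3a, named after its values were seen, lies 59.5 kb beyond Muc3 and had 51.3, 93.1 and 23.1 CPM in wild-type against 4.15, 23.0 and 0.699 CPM for the knockout label. Like Muc3 it was highest in WT 2 and lowest in KO 3, with a log2 ratio of -2.58.

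Marker lists of colon cell types also differed between libraries. Goblet cell markers summed to 11695 to 12545 CPM in wild-type libraries, 379 in KO 1, 11976 in KO 2 and 23.8 in KO 3, so the sum for KO 2 lay inside the wild-type range, as Muc1 and Muc2 did. Of its 6 genes, Zg16 and Clca1 lay inside that range in KO 2 and Tff3 above it, while Agr2 (166 CPM against 447 to 805), Fcgbp (1651 against 2498 to 3718) and Spink4 (265 against 370 to 417) lay below. Colonocyte markers summed to 4999 to 7390.4 CPM in wild-type libraries and to 409, 2934 and 70.3 CPM under the knockout label, all below. By gene, Krt20 (1479 CPM against 956 to 2330) and Aqp8 (475 against 465 to 973) lay inside the wild-type range in KO 2. Car1, Slc26a3, Car4 and Guca2a lay below it there. Fibroblast markers summed to 1264 to 2236 CPM in wild-type and 3714.5 to 6443 CPM under the knockout label, and endothelial markers to 146 to 295 and 227 to 997 CPM. In KO 3 most of the fibroblast sum was Dcn, at 3515 CPM. Col3a1 and Col6a1 lay inside the wild-type range there, and Col1a1 below it at 92.5 CPM against 149 to 307. Dcn, Lum and Pdgfra were higher without overlap, beside 15% of all genes. Macrophage markers overlapped, at 309 to 666 and 198 to 627 CPM. The median log2 ratio was -3.12 for colonocyte, -1.77 for goblet cell, 1.02 for fibroblast, 1.35 for endothelial, 4.06 for neutrophil and -0.30 for macrophage markers. It was 1.85 for stem and crypt base, -0.56 for tuft and enteroendocrine, 0.14 for lymphocyte and -0.085 for smooth muscle markers. The stem and crypt base value was that of Lgr5, at 0.238 to 1.00 CPM in wild-type and 0.400 to 4.04 under the knockout label. Lgr5, Olfm4 and Axin2 overlapped between the labels, with Axin2 at -0.27, and Smoc2 and Lrig1 were higher without overlap. Of 6 squamous and pancreatic markers 3 were tested, with unlike signs and a median of -1.87. Krt14 was at -1.87 and Cela1 at -1.90, whereas Prss2, a trypsinogen gene, was at 6.59, with CPM of 5.29, 107 and 0.466 for the knockout label against at most 0.951 in wild-type. Cpa1, a pancreatic carboxypeptidase gene below the filter, had 9.09 CPM in KO 1, 150.02 in KO 2 and 0 in the other libraries. The part of these cell types in the values of the members was not tested.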

How the data were processed

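The 6 libraries of distal colon carry 1 date and were made from poly-A RNA. The deposited table holds whole-number read counts per gene, made by the authors from reads cleared, per the labels' protocols, of adaptors, poly-N and low quality. The submitters' processing notes list, with no roles, HISAT2 (2.0.5), then StringTie (1.3.3b), featureCounts (1.5.0-p3) and the package DESeq2, and the builds GRCm38 and mm10. Strand setting and annotation release were not stated there. Coordinates of the members were the same in GENCODE M21. Promoter windows came from RefSeq (GRCm38.p6).

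Genes were kept by filterByExpr (minimum count 10, minimum total 15) and compared with the robust quasi-likelihood test of edgeR 4.0.16 in R 4.3.3 after TMM scaling, with Benjamini-Hochberg adjustment over 16861 genes and a threshold of 0.05. The standard error was taken from the log2 ratio and its F statistic. CPM use the TMM-scaled library sizes of the kept genes, and log2 CPM for likeness a prior count of 2. Single values per library were compared by exact permutation test. Alternatives were other scalings and filters, DESeq2 1.42.0, limma-voom (limma 3.58.1) with and without quality weights, a replicate block and each library left out. The fit was also run on simulated counts in which genes varied independently, and no result here rests on that run. No library was counted as a copy, since chi-square per degree of freedom between libraries of a group was 50.7 to 253.

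The members and the 23 gene lists (166 genes, of which 164 were found) were chosen with earlier results of these data known. All members are named, and a few other genes are not reported here. From each list up to 3 genes with the smallest p could be named, more where a list holds 6 or fewer, together with the 3 genes most alike each member and up to 4 nearest neighbours. Named outside this rule, after their values were seen, were Muc3a, Mep1b, St14, Adam9, Adam17, Adam10, Spdef, Foxa3, St3gal1, Gcnt3, Ifng, Kalrn and Fyttd1.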

Additional observations from a re-analysis of the deposited data

How the results depend on the processing

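The number of transmembrane mucins called was 0 with edgeR and in 14 of 16 alternatives, and 1 in DESeq2 (Muc13), which called 10.5% of all genes. Over the libraries left out in turn the number was 0 to 1, with Muc1 called without KO 2, in a fit that called 10.4% of all genes. The log2 ratios of the 4 tested members were negative in every alternative run. They ranged from -2.53 to -0.89 for Muc1, -5.76 to -3.12 for Muc3, -5.04 to -0.19 for Muc4 and -4.92 to -2.35 for Muc13. With at least 10 reads required in every library, Muc4 was not tested. The summed level differed by -6.56 to -3.04 and its ratio to the epithelial reference by -0.84 to -0.50 over the libraries left out. The share of Muc4, 0.21 percentage points higher under the knockout label, was -0.060 without KO 2, and -0.060 to 0.383 over the libraries left out. Upper-quartile scaling moved the median log2 ratio of all genes from 0.061 to 0.206. Leaving out mitochondrial genes and summing Muc3 with Muc3a, both chosen after seeing the data, called 0 members. The cause of these shifts was not tested. Libraries share only a replicate number: same-numbered libraries had correlations of deviations of -0.20, 0.087 and -0.075, and with the replicate block edgeR called 3 genes and 0 members, with Muc3 at -5.10 and Muc4 at -3.94. Low reads limit Muc20 in all libraries and every member in KO 3.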

Other observations

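The genes around the members did not share one direction. Among all genes, 17.3% were lower and 15% higher without overlap of the labels. Within 250 kb of Muc13, 5 protein-coding genes were tested, of which 2 were lower and 1 higher without overlap. Slc12a8, a transporter gene, had a log2 ratio of -2.90 and Kalrn one of -1.57, while Heg1, a receptor gene of endothelium, had 1.33. Itgb5, the nearest, was at 0.062 and Umps at -0.32. Around Muc4, 6 were tested with a median of -0.049. Tnk2, encoding a kinase, was at -0.94 and Fyttd1 at 0.77, both without overlap, and Rubcn was at -0.29. Around Muc3, 17 were tested with a median of 0.033, of which 4 were lower and 3 higher without overlap. Among the nearest, Trim56 was at -0.63 and Ap1s1 at -1.01. Around Muc1, 28 were tested with a median of -0.079, with 7 lower and 2 higher without overlap. The nearest were Trim46 at -1.65, Mtx1 at -0.031, Thbs3 at 0.88 and Krtcap2 at 0.098. None of these passed the adjusted threshold with edgeR.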
